A study of Zea mays with 12 samples.

Results

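Of 39656 maize genes measured, 33 differed at least 3 times between the genotypes in the starchy endosperm of naked endosperm (nkd) kernels while their mean in the aleurone stayed within 2 times of wild type. They were chosen by their measured levels: a mean of at least 50 normalised reads over the 6 starchy endosperm libraries, a gap of at least 3 times between the libraries of the genotypes, a mean of at least 20 in B73 aleurone, and an nkd aleurone mean between 0.5 and 2 times that of B73. In nkd starchy endosperm 16 of them were lower and 17 were higher. A normalised read is a read count divided by 1 size factor per library, and 1 transcript, the most abundant, stands for each gene. All levels and folds within a cell type are therefore a description of the choice and carry no test.

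The endosperm of a maize kernel is the tissue that feeds the embryo and seedling. Its outer cell layer, the aleurone, stays alive at maturity, accumulates oil bodies and maturation proteins and later secretes hydrolytic enzymes, whereas the inner starchy endosperm fills with starch and zein storage proteins. In nkd kernels a duplicate pair of transcription factor genes is mutated, Nkd1 and Nkd2, whose proteins carry the zinc fingers of the INDETERMINATE family, and the question posed was what they do in endosperm differentiation. Each genotype gave 3 libraries of aleurone and 3 of starchy endosperm, from kernels of the inbred line B73 (wild type) or of nkd plants backcrossed to B73 for 4 generations, all harvested 15 days after pollination.

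The cells were cut from paraffin sections by laser capture and their RNA was amplified in 2 rounds before sequencing, so a cell that contributed less RNA and a smaller share of such cells cannot be told apart. Depth over 1 transcript per gene ranged from 9570998 reads in B73 starchy endosperm replicate 3 to 64000784 in B73 aleurone replicate 1. The log2 values of B73 starchy endosperm replicate 2 correlated at up to 0.925 with a B73 aleurone library and at up to 0.881 with its own group, the latter with replicate 1. Replicate 3, the shallowest library, was the least like its own group, at up to 0.793, and reached 0.767 with the other groups. Reads of 5 aleurone markers made up 0.0962% of replicate 2 against 0.015% and 0.0264% in replicates 1 and 3. Those of 5 oil body and maturation genes made up 0.0754% against 0.02% and 0.0254%. Most of the first share was vpp1, at 4499, 23594 and 9256 normalised reads in replicates 1, 2 and 3, and most of the second was ole1. LTP3 too was highest in replicate 2, but Sal1 and cr4 were highest in replicate 3 and dek1 in replicate 1. Of the maturation genes vp1 and emb5 were also highest in replicate 2, and glb1 and rab17 in replicate 1. Among the nkd starchy libraries the 5 aleurone markers held 0.0215%, 0.0333% and 0.0887% of the reads, the last in replicate 3. Here too vpp1 held most of the share, at 3422, 4667 and 12212 normalised reads. None of the 5 was at 0 in any starchy endosperm library. Replicate 3 of nkd also stood apart in the summed share of 7 markers of the basal transfer layer, the cells that take up sugars at the kernel base. They held 0.0448% of the reads of nkd starchy replicate 3 against 0.00158% and 0.00311% in replicates 1 and 2. In nkd aleurone they held 0.0253% of replicate 3 against 0.00101% and 0.00173%. The most abundant in nkd starchy endosperm was betl2, at 244, 255 and 4125 normalised reads in replicates 1, 2 and 3. But mrp1, at 9.02, 11.1 and 4.05, was lowest in replicate 3. In B73 the 7 markers held at most 0.00186% of the reads of any library. The nkd starchy replicate 3 was the highest of its group for 8 of the 17 risen and 7 of the 16 fallen genes. The part of basal transfer layer cells in the members' values was not tested. Zeins are the mark of starchy endosperm. The 22 zein genes found by name made up 20.8% to 36.3% of the reads of B73 starchy endosperm and 1.98% to 8.04% of nkd starchy endosperm. But they also made up 11.4% to 22.5% of B73 aleurone. In starchy endosperm the Nkd1 (GRMZM2G129261) libraries held 7168, 2881 and 13456 normalised reads in B73 and 2689, 2276 and 2497 in nkd, and those of Nkd2 (GRMZM5G884137) held 2345, 1537 and 1869 in B73 and 896, 1053 and 1017 in nkd.

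Most genes with a change of this size in starchy endosperm moved the same way in aleurone. Of 256 genes that met the gap and the level limit as falls in nkd starchy endosperm, 230 were also below 0.5 times the B73 mean in aleurone, 9 had under 20 normalised reads there, 1 was above 2 times, and 16 lay inside the window. Of 113 such rises 63 were also above 2 times in aleurone, 32 had under 20 normalised reads in B73 aleurone, 1 was below 0.5 times, and 17 lay inside. For comparison, 11995 of 16265 genes at these levels, 73.7%, lay inside the aleurone window. Among the 16 fallen genes the aleurone ratio of nkd to B73 ran from 0.502 to 1.67 with a median of 0.681 and was below 1 in 13. Among the 17 risen genes it ran from 0.589 to 1.99 with a median of 1.24 and was above 1 in 13. So the members leaned in aleurone towards their direction in starchy endosperm. The rule had limited these ratios, so this describes the chosen genes and was not tested.

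**Figure D1:**
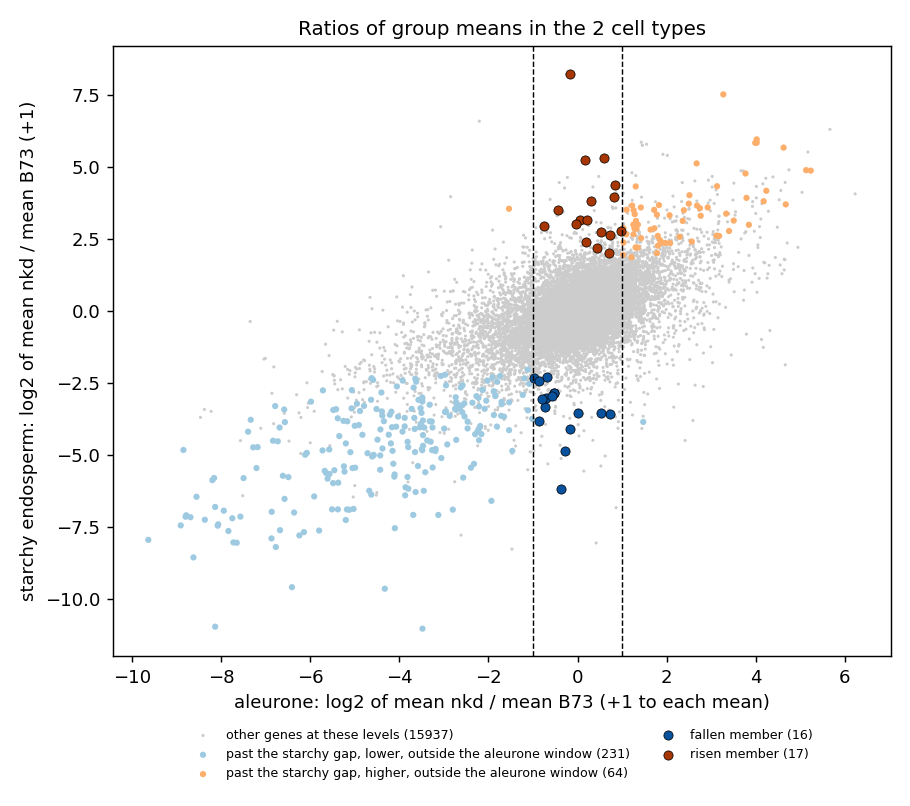
Each point is a gene with the required levels, placed by the log2 ratio of mean normalised reads in nkd to B73 in aleurone (horizontal axis) and in starchy endosperm (vertical axis), with 1 added to each mean, and dashed lines mark a change of 2 times in aleurone. The 16 fallen and 17 risen members lie between the dashed lines, at the edge of the larger sets that moved the same way in both cell types.

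A change confined to the starchy endosperm was not established by a test for any of the 33 genes. The difference between the genotype effects of the cell types was estimated with edgeR's quasi-likelihood test on reads recovered from the deposited values of all 12 libraries, and 0 of 25499 genes had an adjusted p under 0.05 (0% of all genes, and 0 of the 33). At an unadjusted p under 0.05 there were 2030 genes, 7.96% of those tested, and 14 of the 16 fallen and 15 of the 17 risen members were among them. The rule sets this same difference, so nothing is read from the members' count. DESeq2, another count test, called 198 genes for this difference, among them 4 fallen and 5 risen members. The 95% intervals of the aleurone change (limma on log2 of the normalised reads plus 1) reached beyond a change of 2 times for all 16 fallen and for 16 of the 17 risen genes, so 3 libraries a group do not show that these genes kept their level in aleurone.

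The genotype contrasts gave these counts for the members. In starchy endosperm limma with Benjamini-Hochberg adjustment over all genes called 7 of the 16 fallen and 8 of the 17 risen genes, against 1.31% of all genes called lower and 0.464% called higher (1.78% in either direction), a contrast the rule had used. These counts rested on every library: without B73 starchy replicates 1, 2 and 3 they were 0, 1 and 3 fallen and 2, 6 and 6 risen genes, and without nkd starchy replicates 1, 2 and 3 they were 2, 2 and 3 fallen and 1, 0 and 4 risen genes. The calls over all genes dropped in the same fits. They went from 437 to 25, 134 and 211 without the B73 replicates and to 164, 152 and 202 without the nkd replicates. The rule also used the aleurone contrast, since it kept only ratios between 0.5 and 2, so the following aleurone counts are a description too. In aleurone limma called 0 of the 33, and it called 14.6% of all genes (6.32% higher and 8.28% lower). With edgeR and with DESeq2, 0 of the 16 fallen and 16 risen members tested were called there. At an unadjusted p under 0.05 limma had 3 fallen and 0 risen genes, and 29.0% of all genes. The libraries of the genotypes did not overlap in aleurone for 3 fallen and 3 risen genes, where 33.7% of all tested genes showed no overlap. The 3 fallen ones, GRMZM2G128179, GRMZM2G180254 and PDIL5-1, were lower in nkd aleurone as well, and the 3 risen ones, GRMZM2G090029, GRMZM2G059582 and GRMZM2G099461, were higher there.

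Among the fallen genes, vp1 (GRMZM2G133398) is the regulator best known in the kernel. It encodes VIVIPAROUS1, a B3-domain transcription factor that acts with abscisic acid to promote seed maturation and prevent precocious germination, and that is needed for anthocyanin synthesis in the aleurone. In starchy endosperm vp1 held 198, 237 and 193 normalised reads in the B73 libraries and 0.82, 13.2 and 36.5 in the nkd libraries. In aleurone it held 521, 1307 and 967 in B73 and 2024, 2103 and 528 in nkd. The B73 starchy libraries lay close together and all far above nkd, a 12.4-fold difference of means, while in aleurone the genotypes overlapped, with nkd replicates 1 and 2 high and replicate 3 level with the lowest B73 library. The nkd starchy values rested on 1, 26 and 72 reads. Their order was that of the share of aleurone markers, which was mostly vpp1, and that of the share of basal transfer layer markers. The aleurone markers LTP3, Sal1, cr4 and dek1 did not have this order, nor did mrp1 and meg1 of the basal transfer layer markers. The part of such cells in the vp1 values was not tested.

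Genes of the maturation programme in which vp1 acts were measured alongside it. Of 5 listed oil body and maturation genes, vp1 included, 4 were tested in starchy endosperm and 0 had an adjusted p under 0.05 (limma). Beside vp1, which the rule chose for its fall, the log2 differences were -2.87 for ole1, -1.38 for glb1 and -1.31 for rab17, against a median of 0.12 over all genes. In aleurone 0 of the 5 had an adjusted p under 0.05, and the log2 differences of these 3 were -1.31, -0.81 and 1.68. The oleosin gene ole1 (GRMZM2G337229), for a coat protein of oil bodies, held 6761, 19059 and 10574 normalised reads in B73 starchy endosperm and 354, 2402 and 4109 in nkd, so its libraries did not overlap, as for 21.3% of all genes in starchy endosperm. The dehydrin gene rab17 (GRMZM2G079440), an abscisic acid responsive gene, held 44.8, 3.6 and 17.9 in B73 and 2.46, 2.02 and 23.8 in nkd, with overlap. The list of endosperm regulators, with o2, pbf1 and vp1 among its 5 genes, had 0 of 4 tested genes with an adjusted p under 0.05 in starchy endosperm and 2 lower in aleurone.

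The phytase gene PAPhy (GRMZM2G134054) was among the 2 most abundant fallen genes. It encodes a purple acid phosphatase phytase, of the enzymes that release phosphate from phytate, the phosphorus store of cereal grains. PAPhy held 5302, 5603 and 6836 normalised reads in B73 starchy endosperm and 1636, 618 and 1393 in nkd, a 4.86-fold difference of means. In aleurone it held 8751, 17297 and 19374 in B73 and 16832, 8050 and 3456 in nkd. The starchy groups were 3.24 times apart at their nearest libraries, whereas in aleurone nkd replicate 1 lay within the B73 range and replicates 2 and 3 below every B73 library.

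PDIL5-1 (GRMZM2G443655) encodes a protein disulfide isomerase-like protein, of the family that forms disulfide bonds in secreted proteins. It held 19077, 20292 and 42425 normalised reads in B73 starchy endosperm and 6318, 3990 and 4866 in nkd, the highest level of any member. In aleurone PDIL5-1 held 13419, 15141 and 13835 in B73 and 7697, 12280 and 3265 in nkd, all 3 nkd libraries below all 3 of B73. Its B73 mean was 5.39 times that of nkd in starchy endosperm, and its nkd mean was 0.548 times that of B73 in aleurone. A second identifier of the same reference entry, GRMZM2G073628, was counted separately and did not meet the rule. GRMZM2G073628 held 1414, 955 and 484 normalised reads in B73 and 204, 563 and 206 in nkd starchy endosperm, so here nkd replicate 2 lay above B73 replicate 3 and the genotypes overlapped.

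GRF6 (GRMZM2G041223) had little spread in both starchy groups. It held 524, 399 and 502 normalised reads in B73 and 42.7, 69.3 and 60.8 in nkd starchy endosperm, an 8.25-fold difference of means, and 573 ± 245 in B73 and 349 ± 143 in nkd aleurone (SD, n = 3). GRMZM2G000397 stood beside it, with 1 gene entry between them in the order of the RefSeq gene table (Zm-B73-REFERENCE-NAM-5.0), the only pair of members within 10 genes of each other among the 23 with an entry. GRMZM2G000397 held 669, 563 and 368 in B73 and 29.5, 103 and 88.2 in nkd starchy endosperm. In both neighbours nkd starchy replicate 1 was the lowest library and replicate 2 the highest of its group.

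The other fallen genes have no name in the sources used here. GRMZM2G128179 had the widest gap of the fallen genes: it held 669, 725 and 1085 normalised reads in B73 and 52.5, 42.5 and 77.5 in nkd starchy endosperm, 8.63 times apart at the nearest libraries. It also stood at 604 ± 44.5 in B73 and 329 ± 65.4 in nkd aleurone (SD, n = 3), a ratio of 0.544. GRMZM2G315767, with 222, 164 and 179 in B73 and 27.9, 17.2 and 24.8 in nkd starchy endosperm, had little spread within its starchy groups. In aleurone GRMZM2G315767 varied more, with 690, 284 and 281 in B73 and 176, 189 and 473 in nkd.

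GRMZM2G154747 shared the layout of vp1. Its aleurone libraries held 842, 818 and 939 normalised reads for B73 and 1253, 1971 and 533 for nkd. In starchy endosperm GRMZM2G154747 held 93.8, 90.8 and 507 in B73 and 0, 27.3 and 29.4 in nkd. For both genes aleurone exceeded starchy endosperm in each genotype by the group means, and nkd replicate 1 was the lowest starchy library.

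Some fallen genes rested on uneven libraries. GRMZM2G111293 held 563, 153 and 35.9 normalised reads in B73 starchy endosperm and 5.74, 1.52 and 0 in nkd, the last group 10 reads in all. In aleurone GRMZM2G111293 was low, at 22.8, 26.5 and 13.8 in B73 and 43.6, 4.73 and 0 in nkd, so the ratio of 0.766 that put it inside the window came from 1 nkd library. GRMZM2G477762 likewise held 81, 44 and 287 in B73 and 6.56, 4.05 and 0.507 in nkd starchy endosperm, and nkd aleurone replicate 1 alone, at 50.9, held its aleurone mean near B73. GRMZM2G131961 was the third of this kind, with nkd aleurone libraries at 103, 8.79 and 15.8. The remaining 5, GRMZM2G303768, GRMZM2G046274, GRMZM2G180254, GRMZM2G071808 and GRMZM2G102845, had starchy folds of means between 5.24 and 18.6. Over all 16 the fold of means was 9.52 at the median.

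**Figure D2:**
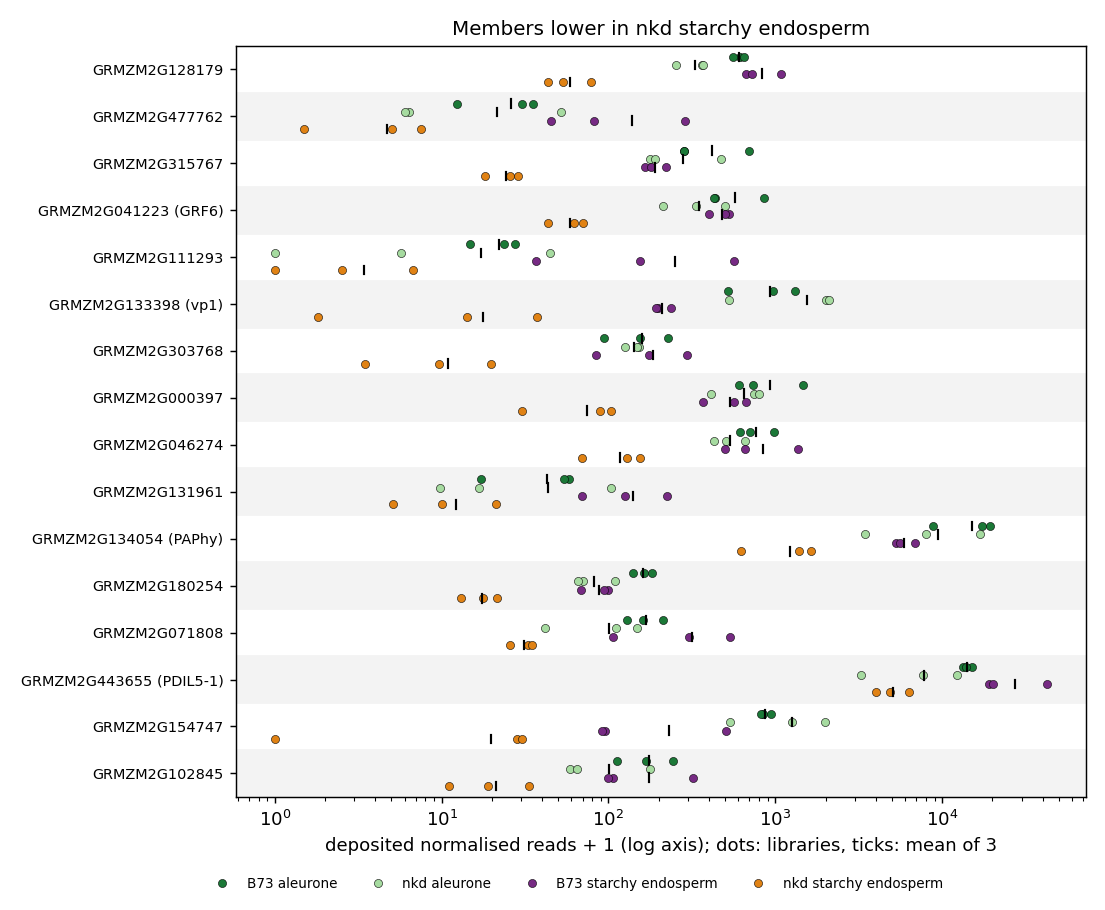
Normalised reads plus 1 (log axis) of the 16 fallen members, with a dot for each library and a tick for the mean of each group of 3, ordered by the gap between the starchy libraries of the genotypes. The nkd starchy libraries lie left of all B73 starchy libraries by the rule, while the aleurone libraries of the genotypes overlap for 13 of the 16.

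Among the risen genes gst42 (GRMZM2G025190) had the widest gap. It encodes a glutathione S-transferase, an enzyme family that conjugates glutathione to reactive and foreign compounds. In starchy endosperm gst42 held 2.13, 35.1 and 35.9 normalised reads in B73 and 989, 1206 and 722 in nkd, a 39.9-fold difference of means and 20.1 times between the nearest libraries. In aleurone it held 49.6, 106 and 79.2 in B73 and 104, 103 and 56.8 in nkd. The aleurone groups overlapped, and nkd starchy endosperm stood far above every other library of the gene within its table.

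The gene rld2 (GRMZM2G042250), rolled leaf2, encodes a class III homeodomain-leucine zipper transcription factor, of a family that sets the upper side of leaves. In starchy endosperm rld2 held 93.8, 184 and 130 normalised reads in B73 and 831, 1021 and 705 in nkd, a 6.27-fold difference of means. In aleurone it held 464, 413 and 452 in B73 and 782, 423 and 1009 in nkd, where 2 of the nkd libraries were above B73 and 1 was within its range. GR2b (GRMZM2G142705) held 6.4, 31 and 0 in B73 and 138, 149 and 177 in nkd starchy endosperm, and its aleurone libraries, 52.9, 152 and 87.6 in B73 and 71.5, 33.8 and 110 in nkd, overlapped.

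The other 14 risen genes have no name in the sources used here. GRMZM2G468111 reached the highest level of the risen genes, with 93.8, 253 and 161 normalised reads in B73 and 1172, 2221 and 1153 in nkd starchy endosperm, and its aleurone means were 366 ± 53.5 for B73 and 423 ± 108 for nkd (SD, n = 3). GRMZM2G013619 had little spread in starchy endosperm: it held 262, 305 and 255 in B73 and 1149, 1186 and 1047 in nkd starchy endosperm. In aleurone GRMZM2G013619 varied more, with 712, 383 and 253 in B73 and 1537, 364 and 304 in nkd, replicate 1 the highest of each group.

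Some rises started from low levels. GRMZM2G090029 held 0, 10.3 and 0 normalised reads in B73 and 243, 146 and 142 in nkd starchy endosperm, and its aleurone means were 31.9 ± 8.53 for B73 and 48.7 ± 5.97 for nkd (SD, n = 3). GRMZM2G043394 held 27.7, 15.3 and 17.9 in B73 and 579, 444 and 309 in nkd starchy endosperm. In aleurone GRMZM2G043394 held 25.2, 3.79 and 157 in B73 and 48.5, 24.3 and 264 in nkd, so replicate 3 carried most of both means. It was no longer a member without B73 aleurone replicate 3 or without nkd aleurone replicate 1 or 2. GRMZM2G059582 held 8.53, 13.5 and 8.96 in B73 and 124, 172 and 237 in nkd. For these 3 genes the nearest libraries were 13.7, 11.2 and 9.19 times apart.

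GRMZM2G076798 was counted as risen by the letter of the rule but rested on single libraries. It held 0, 0.449 and 0 normalised reads in B73 starchy endosperm, 1 read in all, and 18.9, 2.02 and 1029 in nkd. In aleurone GRMZM2G076798 held 0, 3.79 and 540 in B73 and 2.42, 481 and 1.89 in nkd, so 1 library of each of these groups carried nearly all its reads. With B73 starchy libraries at 0 set to the value of 1 read in the shallowest library, a check added after the values were seen, it was no longer among the risen genes and 16 remained.

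The remaining 8 risen genes were GRMZM2G099461, GRMZM2G133978, GRMZM2G013970, GRMZM2G111529, GRMZM2G134235, GRMZM2G067520, GRMZM2G420786 and GRMZM5G859526, with starchy folds of means between 4.79 and 14.9. GRMZM2G013970 held 4.26, 47.6 and 4.48 normalised reads in B73 and 190, 325 and 325 in nkd starchy endosperm. GRMZM5G859526 held 6.4, 26.1 and 4.48 in B73 and 80.4, 83.5 and 155 in nkd. Both show B73 replicate 2 above its group, and that replicate was the highest of the 3 for 12 of the 17 risen genes.

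Depth limited the low side of the rises. In B73 starchy endosperm replicate 3, where 1 read is worth 4.48 normalised reads, 10 of the 17 risen genes had 3 reads or fewer and 3 had 0. In replicate 1 7 had 3 reads or fewer, and in replicate 2, the deepest of the group, 1 had. A count of 0 in replicate 3 allows up to 13.4 normalised reads, counting error only. Among the fallen genes 3, 1 and 2 of 16 had 3 reads or fewer in nkd starchy replicates 1, 2 and 3.

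**Figure D3:**
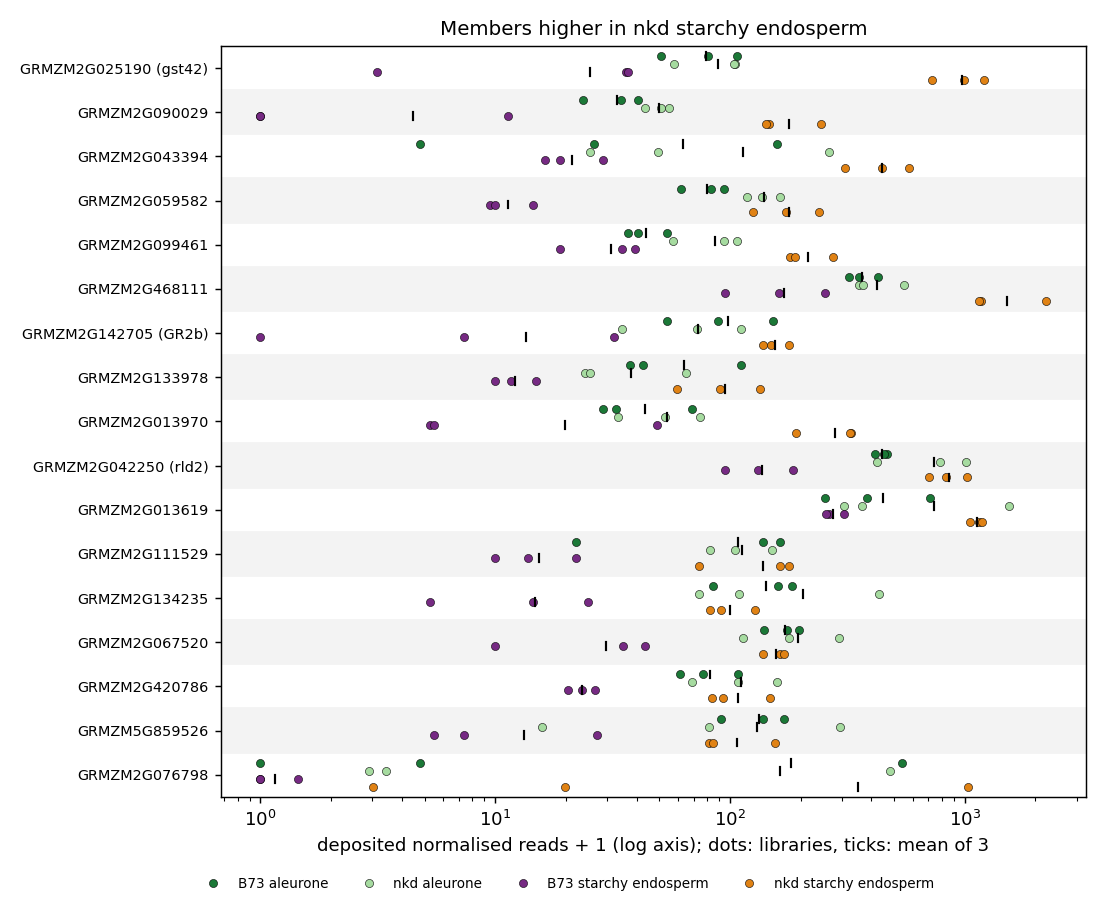
Normalised reads plus 1 (log axis) of the 17 risen members, with a dot for each library and a tick for the mean of each group of 3, ordered by the gap between the starchy libraries of the genotypes. The nkd starchy libraries lie right of all B73 starchy libraries by the rule, and for GRMZM2G076798 at the bottom the libraries of each group spread over most of the axis except in B73 starchy endosperm.

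The levels of the cell types were compared on a common scale, CPM with TMM factors over all 12 libraries, because the deposited tables were normalised separately. These contrasts share the starchy libraries with the rule, which favours high B73 and low nkd starchy levels among falls and the reverse among rises. In B73 the fallen genes stood at a median of 1.99 times their aleurone level in starchy endosperm, with 6 genes above and 1 gene, vp1, below aleurone without overlap, where 8.79% and 16.2% of all genes were. In nkd they stood at 0.342 times, with 0 above and 10 below without overlap, where 13.1% and 16.1% of all genes were. The risen genes stood at 0.344 times aleurone in B73, with 0 above and 8 below without overlap, and at 4.19 times in nkd, with 12 above and 0 below.

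On this scale gst42 had a mean of 46.3 TMM-scaled CPM in nkd starchy endosperm, 1.89 in B73 aleurone, 2.07 in nkd aleurone and 1.12 in B73 starchy endosperm. The same quantity for rld2 was 40.6 in nkd starchy endosperm, 10.7 in B73 aleurone, 17.3 in nkd aleurone and 6.36 in B73 starchy endosperm. For vp1 it was 0.785 in nkd starchy endosperm, 22.5 in B73 aleurone, 36.4 in nkd aleurone and 9.77 in B73 starchy endosperm.

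In counts of calls the same selection is at work, so they describe the members and test nothing about them. Comparing starchy endosperm with aleurone in nkd, edgeR's quasi-likelihood test with Benjamini-Hochberg adjustment called 8 of the 16 fallen genes lower in starchy endosperm, where 3.51% of all genes were, and 4 of the 17 risen genes higher, where 3.54% were (7.05% in either direction). With the replicate number as a block these counts were 4 and 6, where 850 genes in all were lower and 809 higher. With DESeq2 they were 9 and 10, where 2016 genes in all were lower and 1840 higher, against 895 and 902 with edgeR. The fallen count was 2, 4 and 5 without nkd starchy replicates 1, 2 and 3, where 254, 376 and 1502 genes in all were lower. Without nkd aleurone replicates 1, 2 and 3 it was 3, 4 and 4, where 493, 375 and 526 genes in all were lower. It was 5 without B73 aleurone replicate 2 or 3, where 651 and 636 were. The risen count was 2 without nkd starchy replicate 1 or nkd aleurone replicate 2, where 408 and 334 genes in all were higher. The vp1 difference was -5.50 on the log2 scale and that of GRMZM2G154747 -5.01, while gst42 had 4.48 and GRMZM2G468111 2.86. PDIL5-1, at 0.39, was the only fallen gene with a log2 difference above 0. In B73 0 of the 33 were called, where 0% of all genes were (edgeR, 0 of 25499, with 4196, 16.5%, at an unadjusted p under 0.05), and 7 fallen and 6 risen members had an unadjusted p under 0.05. DESeq2 called 1372 genes in B73, among them 6 fallen members and 1 risen member. Without B73 starchy endosperm replicate 2, edgeR called 421.

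**Figure D4:**
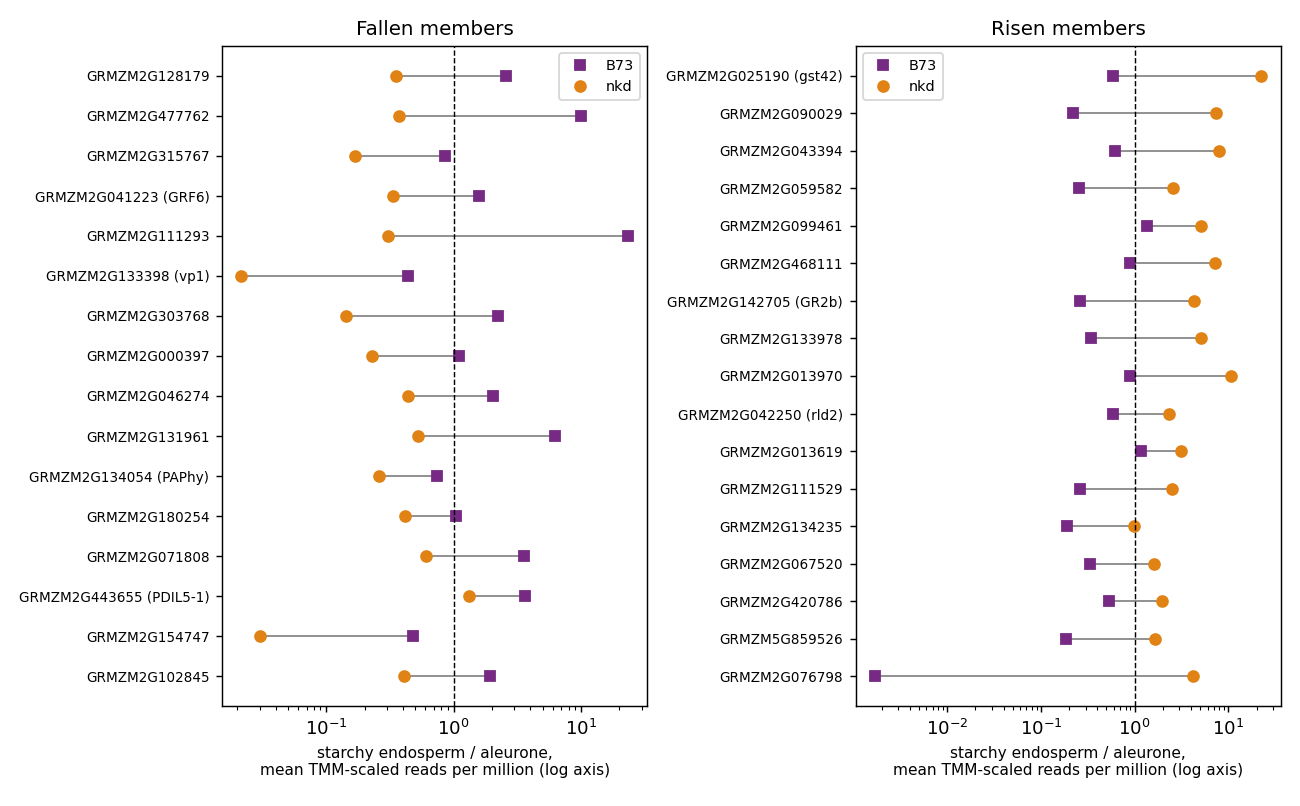
Ratio of starchy endosperm to aleurone in mean TMM-scaled CPM (log axis) for each member, in B73 (squares) and nkd (circles), with a line joining the genotypes and a dashed line at equal levels. By the rule the circles lie left of the squares for every fallen gene and right of them for every risen gene, and vp1 and GRMZM2G154747 reach the lowest ratios in nkd.

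The limits of the rule passed through a continuous range of genes. Just inside the limit of 3 times for the gap lay PDIL5-1 at 3.02 and GRMZM2G102845 at 3.04 among falls, and just outside lay GRMZM2G111451 at 2.99 and GRMZM2G167245 at 2.94. Among rises GRMZM5G859526 at 3.08 and GRMZM2G067520 at 3.22 were inside and GRMZM2G056989 at 2.99 and GRMZM2G024561 at 2.92 outside. At the aleurone limits GRMZM2G180254 was inside at a ratio of 0.502 and GRMZM2G099461 at 1.99, and GRMZM2G079938 at 0.494 and GRMZM2G145662 at 2.04 were outside.

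Single libraries set the number of members, since the gap is taken between the nearest libraries. The number of fallen genes rose from 16 to 31 and 52 without B73 starchy replicates 1 and 2 and to 34, 26 and 84 without nkd starchy replicates 1, 2 and 3. The number of risen genes went from 17 to 26, 116 and 32 without B73 starchy replicates 1, 2 and 3, and to 32 and 32 without nkd starchy replicates 1 and 2. Leaving out a starchy library can only keep or widen a gap, so a member could be lost that way through the level limit alone, and the members kept say nothing about the part of that library. Members also depended on the aleurone libraries. Without nkd aleurone replicates 1, 2 and 3 in turn, 10, 14 and 13 of the 16 fallen genes stayed members. Of the 17 risen genes 16, 12 and 14 did. Without the B73 aleurone replicates it was 16, 14 and 14 fallen and 15, 16 and 15 risen genes. PAPhy and GRF6 were lost without nkd aleurone replicate 1, PDIL5-1 and rld2 without replicate 2, and GRMZM2G315767 without replicate 3. The gene vp1 left the window without B73 aleurone replicate 2 or nkd aleurone replicate 3, as its aleurone ratio of nkd to B73 then exceeded 2.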

How the data were processed

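Signal values were deposited by the authors in 2 tables of 63540 transcripts, 1 per cell type with 6 libraries each, normalised separately. Per the submitters' processing notes, the tools were FastQC, TopHat and DESeq (no versions stated). Not given in the sources used here are the build, the annotation, strand use and how multiply mapping reads were treated, so overlapping or near-identical genes may share reads. Dividing by the smallest step made 100% of values whole in every library (tolerance 0.01), and these reads were used for count tests. The 2-round amplification can distort levels. Gene names were looked up in the RefSeq table (18774 of 39656 identifiers, 47.3%, had an entry; 23 of 33 members, 7 with a name). It holds no product names or promoter sequences, so the planned counts of functional classes and promoter motifs were not made. The members and lists were chosen with earlier results of these data known. The rule for named genes took, among members with a name, the 15 with the widest gap in each direction, members in a marker list, the 2 nearest to each side of the gap limit, and both nkd loci; the other members, and those at the aleurone limits, were named after their values were seen.

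Genotypes were compared within a table by limma 3.58.1 (trended empirical Bayes) on log2(value + 1), with genes kept where the mean reached 5. The added 1 understates changes of low genes. Cell types and the difference of effects were compared on recovered reads with edgeR 4.0.16 (quasi-likelihood, TMM), in R 4.3.3. DESeq2 1.42.0 was an alternative, and the rest was done in Python 3.11.15 with numpy 2.4.6, pandas 2.3.3 and, for plots, matplotlib 3.10.9. All tests were two-sided, with p-values adjusted by Benjamini and Hochberg's method and called under 0.05. The code of limma in starchy endosperm and of edgeR's test of the difference was run on simulated reads. These had the same spread for every gene and library, so the run does not show how the tests perform on the uneven libraries here. The labels call the replicates independent and biological but do not say how many kernels each holds, so p-values measure the spread between libraries. They tie each replicate number to 1 of 3 flow cells, which pairs the libraries by design; deviations from the group means of libraries of 1 number correlated between -0.22 and 0.22 over 18 pairs, 5 of them over 0.1.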

Additional observations from a re-analysis of the deposited data

How the results depend on the processing

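The number of fallen and risen members was 16 and 17. It was 72 and 80 with a gap of 2 times, 7 and 9 with 4 times, 7 and 10 with an aleurone window of 0.67 to 1.5, 10 and 8 with level minimums of 100 and 40, and 26 and 22 with 25 and 10. With transcripts summed it was 20 and 19, with 15 and 17 of the original members, and with TMM factors 15 and 18, with 13 and 16 of them; PDIL5-1 was one of the 3 fallen genes lost with TMM factors. With 1 library left out it ranged from 13 to 84 and from 14 to 116.

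Over all genes limma called 437 in starchy endosperm, 215 with no filter on low values, 1692 with DESeq2, 626 when blocked on replicate number, and 25 to 211 with 1 library left out. Of the fallen and risen members 7 and 8 were called, 8 and 8 with the block, and 16 of 16 and 16 of 16 tested with DESeq2. The difference between the cell types had 0 calls with edgeR, also with the block, 198 with DESeq2, and 0 to 1 with 1 library left out. Starchy endosperm against aleurone had 0 calls in B73 and 1797 in nkd with edgeR, 1372 and 3856 with DESeq2, and 0 to 421 and 662 to 2545 with 1 library left out. In aleurone limma called 3868 genes, 2994 with the block, and 1945 to 3724 with 1 library left out; no member was called under any of these or with DESeq2. The cause of these shifts was not tested. Some alternatives also held fewer libraries or another number of genes, and the part of that was not tested either. Of the members' log2 differences in starchy endosperm, whose sign the rule fixes, 10 values under other settings moved by more than the spread between replicates and 187 did not. The block moved no count over all genes by more than 1.5 times. Low depth in B73 starchy endosperm replicate 3 limits how well its own low values among the risen genes are known. Replicate 2, the deepest of that group, was its highest library for 12 of the 17 risen genes.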
